A study of Mus musculus with 8 samples.

Results

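The 10 endothelial marker genes described here were Pecam1, Cdh5, Kdr, Flt1, Emcn, Ehd3, Plvap, Tek, Egfl7 and Eng, out of 25240 gene symbols in the deposited count table. They were chosen by their levels in these same libraries, because they had been seen to differ between the title prefixes CKD627 and CKD523. That difference is therefore given as a description, with no test, while the comparison of Tomato-positive with Tomato-negative cells did not enter the choice and is tested. All 10 were found in the table and all passed the filter on low counts.

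RNA was sequenced in 8 libraries of kidney cells from p16-tdTomato mice given an adenine-rich diet to bring about chronic kidney disease. The 4 Tomato-negative and 4 Tomato-positive libraries share the genotype and the diet, so there is no healthy or reporter-free group. Each of the title identifiers CKD523_2, CKD523_3, CKD627_1 and CKD627_2 names 1 library of each group, and the libraries with the same identifier are called a pair. What the prefixes CKD523 and CKD627 stand for, how the reporter was built, how cells were sorted, and the sex and age of the mice are not given in the labels. These do not say that identifiers are separate animals, so p-values measure only the spread between these samples, which may be technical.

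Endothelial cells line the blood vessels. In the kidney they form the fenestrated capillaries of the glomerulus, the capillaries around the tubules, the vasa recta of the medulla, and the arteries and veins. They are held together by VE-cadherin and PECAM-1, respond to VEGF made by podocytes and tubule cells through the receptors encoded by Kdr and Flt1, and to angiopoietins through Tek. They are not tubule cells, and the labels name the proximal tubular epithelial cell as the cell type of every library.

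The reporter tdTomato lay between 87.3 and 152 CPM (counts scaled to the TMM-adjusted library total, 1 CPM standing for 13.0 to 20.6 counts) in the Tomato-negative and between 3224 and 4184 CPM in the Tomato-positive libraries, and Cdkn2a, the p16 gene, between 4 and 39 and between 6 and 57 counts. All 15 genes of the proximal tubule marker list were detected in the Tomato-negative libraries, and all but Slc22a7 (0 counts) in the Tomato-positive libraries. Their summed level was between 4145 and 27839 CPM. The 10 endothelial genes summed to between 82.2 and 847 CPM, or 0.00794 to 0.0908% of all counts. Total counts per library ranged from 13474439 to 19886202. Single members had between 61 and 2077 counts per library. In such bulk samples, fewer cells of a type and less RNA per cell cannot be told apart.

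The adhesion genes showed the size of the difference between prefixes. Pecam1 encodes PECAM-1 (CD31), the adhesion protein of endothelial contacts also carried by platelets and some leukocytes (mm10, chromosome 11, 106654217 to 106750628, minus strand). In the order CKD523_2, CKD523_3, CKD627_1 and CKD627_2, its level was 28.1, 17.1, 62.7 and 105 CPM in the Tomato-negative libraries and 6.61, 35.3, 126 and 82.3 CPM in the Tomato-positive libraries. Every CKD627 library was above every CKD523 library. The means were 21.8 ± 12.6 CPM in CKD523 and 93.9 ± 27.3 CPM in CKD627 (SD, n = 4 each), a 4.92-fold difference of mean log2 CPM. Cdh5, which encodes VE-cadherin of the adherens junction (chromosome 8, 104101625 to 104144511, plus strand), stood in the same order at 23.7, 18.1, 35.7 and 82.1 CPM without Tomato and 7.99, 25.8, 127 and 89.9 CPM with it. The prefixes did not overlap here either, and the log2 difference was 2.13.

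The 2 receptors for VEGF differed by less than the adhesion genes. Kdr encodes VEGF receptor 2, the main signalling receptor of endothelial growth (chromosome 5, 75932827 to 75978458, minus strand). Its levels were 52.5, 30.4, 49.2 and 99.8 CPM in the Tomato-negative and 8.84, 63.8, 105 and 68.3 CPM in the Tomato-positive libraries. The Tomato-positive library of CKD523_3 lay above the Tomato-negative library of CKD627_1, so the prefixes overlapped, with a log2 difference of means of 1.32, and of 0.72 without the Tomato-positive library of CKD523_2. Flt1, which encodes VEGF receptor 1, a receptor with a weaker kinase that also binds VEGF away from Kdr (chromosome 5, 147561604 to 147726011, minus strand), was at 25.3, 20.0, 28.5 and 67.9 CPM without Tomato and 7.53, 26.8, 101 and 64.1 CPM with it. Its prefixes were separate by a small margin, the lowest CKD627 library standing at 1.06 times the highest CKD523 library, and the log2 difference was 1.73.

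Tek encodes the angiopoietin receptor TIE2, which keeps vessels quiescent (chromosome 4, 94739289 to 94874976, plus strand). It had 10.2, 5.39, 20.4 and 34.3 CPM in the Tomato-negative and 7.76, 11.2, 47.1 and 32.6 CPM in the Tomato-positive libraries. Eng encodes endoglin, a co-receptor for BMP9 and TGF-beta (chromosome 2, 32646595 to 32682669, plus strand), and had 38.9, 28.6, 62.0 and 124 CPM without Tomato and 14.4, 78.1, 123 and 88.8 CPM with it. The prefixes were separate for Tek (log2 difference 1.94) and overlapped for Eng (1.51), where the Tomato-positive library of CKD523_3 was above the Tomato-negative library of CKD627_1.

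The 250 bases before the RefSeq start (GRCm38.p6) of a receptor for each of 3 ligand families are shown because the levels of the members were correlated across libraries: Flt1 at chr5:147726012-147726261 on the minus strand, Tek at chr4:94739039-94739288 and Eng at chr2:32646345-32646594 on the plus strand, each written 5′ to 3′ along the gene. Capitals mark AGGAAG or CCGGAA on either strand, 6-letter words holding the GGAA core of ETS factors, the family of the endothelial regulators Erg and Fli1.
Flt1: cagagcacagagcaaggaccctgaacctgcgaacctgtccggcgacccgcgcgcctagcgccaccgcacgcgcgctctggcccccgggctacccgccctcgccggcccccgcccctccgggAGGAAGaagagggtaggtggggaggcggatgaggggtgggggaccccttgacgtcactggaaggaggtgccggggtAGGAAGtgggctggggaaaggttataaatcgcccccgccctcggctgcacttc
Tek: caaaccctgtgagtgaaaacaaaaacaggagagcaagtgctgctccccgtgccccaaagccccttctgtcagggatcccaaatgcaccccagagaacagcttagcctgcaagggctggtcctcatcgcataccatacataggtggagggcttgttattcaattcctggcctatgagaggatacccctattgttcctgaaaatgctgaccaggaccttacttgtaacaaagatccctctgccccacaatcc
Eng: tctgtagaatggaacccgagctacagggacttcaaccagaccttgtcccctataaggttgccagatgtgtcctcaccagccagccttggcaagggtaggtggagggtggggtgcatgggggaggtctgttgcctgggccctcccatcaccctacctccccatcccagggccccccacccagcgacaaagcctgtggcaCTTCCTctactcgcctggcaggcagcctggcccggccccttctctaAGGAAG
A promoter was found for 7 of the 10 members (all but Pecam1, Cdh5 and Plvap), with 9 windows. AGGAAG was in a window of 4 of these 7 members (Flt1, Emcn, Egfl7 and Eng), and CCGGAA in that of 1 (Kdr). Among all 32851 windows of this length, 29.5% held AGGAAG, 12% held CCGGAA and 38.2% held either. The words are thus common. Either word was in 6 of the 9 windows of members, several of which belong to Egfl7. Tek and Ehd3 held neither in these windows. The part of these words in the members' levels was not tested.

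Emcn, Plvap, Egfl7 and Ehd3 encode the remaining products. Emcn encodes endomucin, a surface sialomucin of capillaries and veins (chromosome 3, 137341067 to 137432185, plus strand), and had 25.6, 18.5, 51.5 and 65.5 CPM without Tomato and 7.07, 33.9, 55.2 and 43.5 CPM with it. Its prefixes were separate, with a log2 difference of 1.53. Egfl7, a secreted protein of vessel walls (chromosome 2, 26580014 to 26593120, plus strand), stood at 11.1, 11.6, 47.0 and 54.5 CPM without Tomato and 4.69, 12.8, 43.1 and 27.8 CPM with it. Its prefixes were separate as well (2.14). In GENCODE M21, 7.37% of the exon bases of Egfl7 are shared with the gene model Gm20532 and 1.79% with Agpat2 on the other strand, and 1.51% of those of Eng with Fpgs on the other strand, so reads there could belong to either gene.

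Plvap and Ehd3 stood at the ends of the range. Plvap encodes the protein of the diaphragms that close endothelial fenestrae, found in capillaries around tubules and largely absent from mature glomeruli (chromosome 8, 71497765 to 71511752, minus strand). Its levels were 6.88, 7.96, 53.9 and 65.9 CPM without Tomato and 5.30, 17.7, 59.6 and 59.0 CPM with it, with the lowest CKD627 library at 3.05 times the highest CKD523 library. Its log2 difference of 2.79 (6.93-fold) was the largest of the 10. Ehd3 encodes an endosome protein that in the kidney marks glomerular endothelium (chromosome 17, 73804134 to 73832094, plus strand), and had 43.7, 26.1, 40.3 and 82.3 CPM without Tomato and 12.1, 70.2, 60.3 and 55.3 CPM with it. Its prefixes overlapped, and its log2 difference of 0.88 (1.84-fold) was the smallest. Without the Tomato-positive library of CKD523_2 it was 0.42.

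In all, 7 of the 10 members were higher in every CKD627 than in any CKD523 library, where 9.52% of the 14284 tested genes were. The median log2 difference was 1.83, against 0.02 over all tested genes. These counts follow from how the members were chosen and support nothing. Within the Tomato-negative libraries alone the log2 differences ran from 0.77 (Ehd3) to 2.99 (Plvap), and within the Tomato-positive libraries alone from 0.98 (Ehd3) to 2.88 (Cdh5). Marker lists of the tubule stood at other levels in the prefixes too: the summed level of 15 proximal tubule genes was between 10907 and 27839 CPM in CKD523 and between 4145 and 7722 CPM in CKD627, and that of 10 collecting duct genes between 319 and 2151 and between 2865 and 5486 CPM. The part of this makeup in the endothelial difference was not tested.

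**Figure D1:**
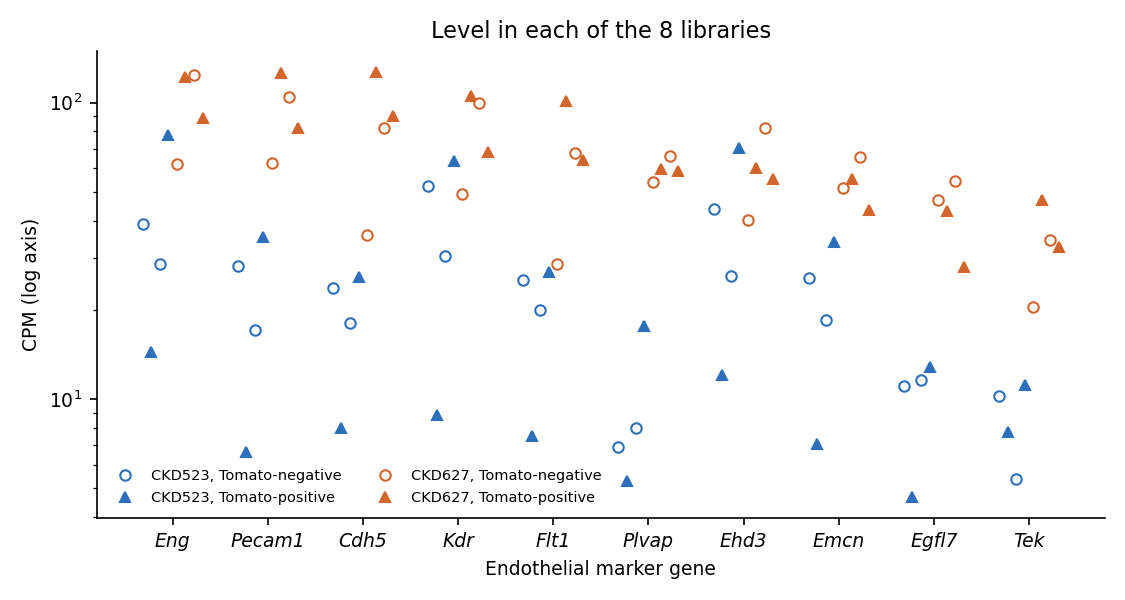
Level of each endothelial marker gene (CPM, log axis) in each of the 8 libraries. Colour gives the title prefix, and open circles are Tomato-negative and filled triangles Tomato-positive libraries. Plvap shows the widest gap between prefixes, Kdr, Ehd3 and Eng overlap, and the Tomato-positive library of CKD523_2 is the lowest for every gene but Tek.

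Within the endothelial signal, the balance of Ehd3 and Plvap also differed between the prefixes. The ratio of Ehd3 to Plvap (CPM over CPM, not scaled for length) was 6.35 and 3.27 in the Tomato-negative and 2.28 and 3.97 in the Tomato-positive libraries of CKD523. In CKD627 it was 0.747 and 1.25 in the Tomato-negative and 1.01 and 0.938 in the Tomato-positive libraries, so every CKD627 library was below every CKD523 library. Ehd3 made up 14.2 to 18.7% of the summed CPM of the 10 genes in CKD523 and 7.12 to 10.5% in CKD627. Plvap made up 2.59 to 6.45% and 7.03 to 12.0%. The ratio of Kdr to Flt1 overlapped between prefixes (1.17 to 2.38 in CKD523, 1.04 to 1.73 in CKD627), as did those of Tek and of Cdh5 to Pecam1. Ehd3 and Plvap had the smallest and largest difference between prefixes, so a shift between them follows from picking them. These ratios and shares were read on the contrast used to choose the genes and have no test.

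**Figure D2:**
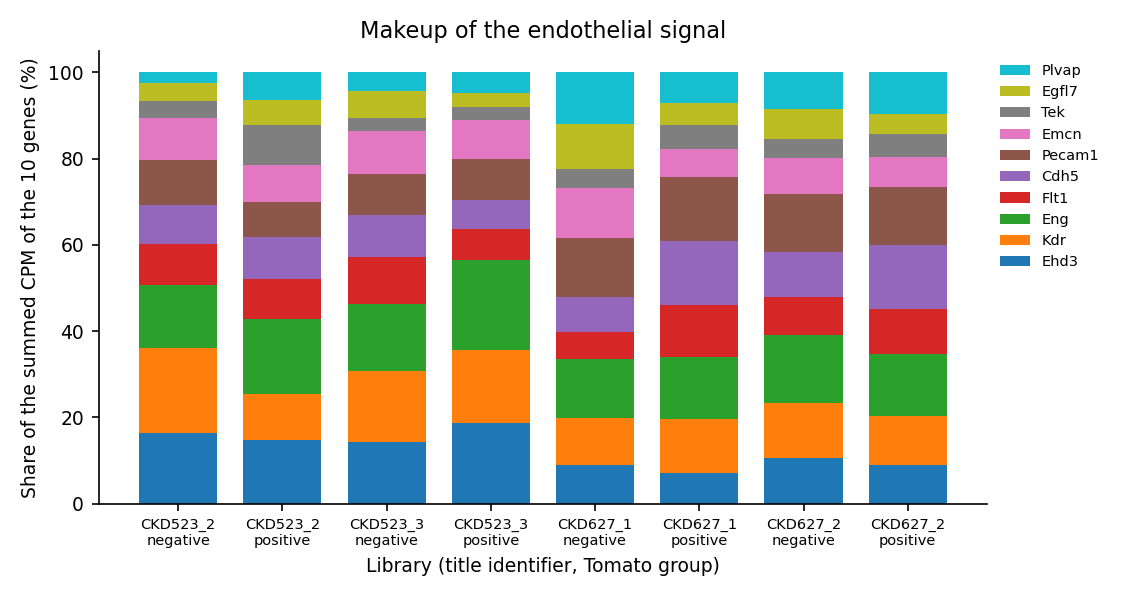
Share of each gene in the summed CPM of the 10 endothelial genes, for each library. Ehd3 (bottom) takes 14.2 to 18.7% in the CKD523 and 7.12 to 10.5% in the CKD627 libraries, and Plvap (top) takes 7.03 to 12.0% in CKD627.

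Per kilobase of exon, the order of the genes also differed. In CKD523 the median level was highest for Eng (8.34 CPM per kilobase), followed by Ehd3 (5.32), Cdh5 (4.98), Kdr (4.59), Emcn (4.08), Plvap (3.74), Pecam1 (3.63), Egfl7 (3.17), Tek (1.91) and Flt1 (1.67). The ranges over the 4 libraries of any neighbours in this order overlapped. In CKD627 the order was Plvap (29.8), Eng (26.1), Cdh5 (20.5), Pecam1 (15.01), Egfl7 (12.6), Emcn (9.86), Kdr (9.31), Ehd3 (8.82), Tek (7.10) and Flt1 (4.89), and the ranges of neighbours overlapped there as well. The lengths were those of all GENCODE exons, and with the smaller basic set the median over the 8 libraries moved from 7.15 to 14.9 for Emcn and from 7.55 to 13.5 for Ehd3.

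No member passed the test between Tomato-positive and Tomato-negative cells. In edgeR's quasi-likelihood test with the identifier as a block, 0 of 10 members rose and 0 fell, where 3.82% of the 14284 tested genes were higher and 3.81% lower in Tomato-positive cells (Benjamini-Hochberg threshold of 0.05). None reached an unadjusted p under 0.05 either, and 0 were called by DESeq2 or by limma-voom with the same block. That unadjusted limit was loose: Aqp1, at an unadjusted p of 0.04995 in edgeR, had an adjusted p of 0.2. Counts at this limit, here and below, have no share of all tested genes beside them and support nothing. The median log2 difference of the members was 0.07, and that of all tested genes 0.01.

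The adhesion gene Pecam1 had a log2 difference of -0.01 ± 0.45 (SE, 95% interval -1.03 to 1.01, edgeR adjusted p = 0.992), and Cdh5 one of 0.28 ± 0.44 (-0.72 to 1.28, adjusted p = 0.737). Among the receptors it was -0.14 ± 0.54 for Kdr (-1.37 to 1.10), 0.15 ± 0.46 for Flt1 (-0.90 to 1.21), 0.16 ± 0.42 for Eng (-0.80 to 1.12) and 0.45 ± 0.29 for Tek (-0.20 to 1.11, adjusted p = 0.369). The group means of Tek were 17.6 ± 12.8 and 24.7 ± 18.6 CPM (SD, n = 4 per group, negative then positive). Egfl7 had the smallest p, with 31.1 ± 22.9 and 22.1 ± 17.0 CPM and a log2 difference of -0.53 ± 0.25 (-1.09 to 0.03, edgeR adjusted p = 0.221). Emcn (-0.33 ± 0.37), Ehd3 (-0.07 ± 0.45) and Plvap (0.19 ± 0.24) did not pass either. A difference of 1 on the log2 scale in at least 1 direction lay inside the interval of 9 members, and outside that of Plvap (-0.35 to 0.74), so these data do not show that the groups are alike.

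The pairs went in opposite directions, and the members moved together within each pair. In CKD523_2 all 10 genes were lower in the Tomato-positive library, by a median of 3.12-fold, with log2 differences from -2.55 (Kdr) to -0.37 (Plvap). In CKD523_3 all 10 were higher, by a median of 2.05-fold, from 0.14 (Egfl7) to 1.44 (Eng). In CKD627_1 9 were higher and only Egfl7 was lower (-0.13), with Cdh5 (1.83) and Flt1 (1.82) highest. In CKD627_2 9 were lower, by at most 0.97 on the log2 scale (Egfl7), and only Cdh5 was higher (0.13). No member had the same sign in all 4 pairs, where 35.5% of all tested genes did.

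**Figure D3:**
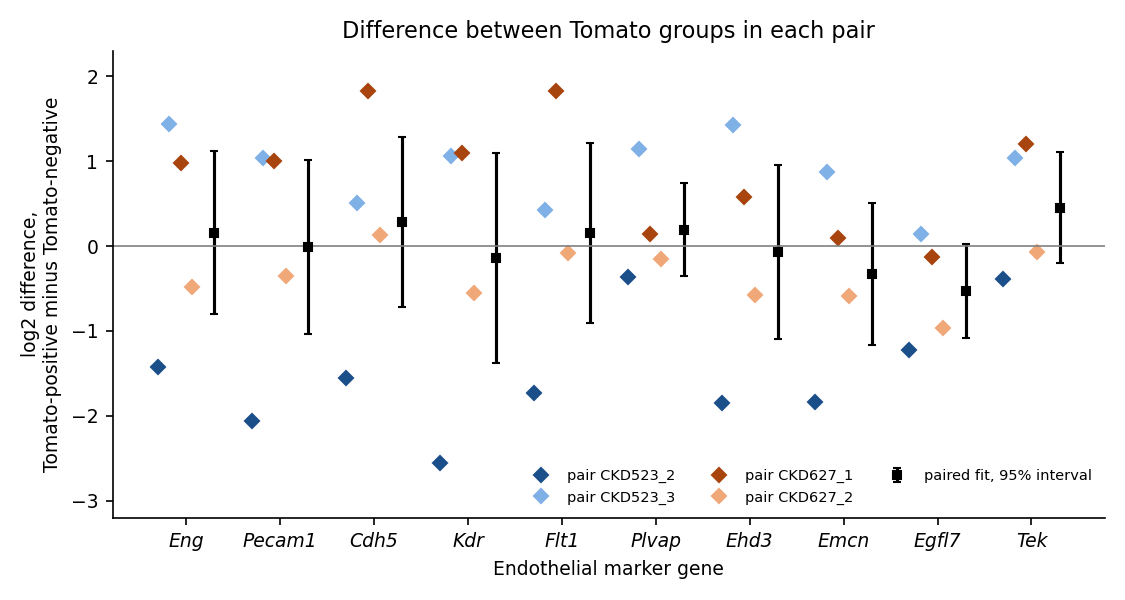
Log2 difference of Tomato-positive minus Tomato-negative CPM for each endothelial gene, as a diamond per pair and as the paired fit with its 95% interval (black). In CKD523_2 every gene lies below 0 (-2.55 to -0.37) and in CKD523_3 every gene lies above it (0.14 to 1.44), and all intervals of the fit hold 0.

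The median of the members turned on single pairs. Without CKD523_2 the median log2 difference of the members was 0.55, without CKD523_3 it was -0.37, and without CKD627_1 it was -0.35. No member passed without any 1 pair (edgeR). Fitted on prefix CKD627 alone, Cdh5 (log2 0.94 ± 0.28, SE, edgeR adjusted p = 0.0126) and Flt1 (0.83 ± 0.28, adjusted p = 0.0369) were higher in Tomato-positive cells, as were 5.09% of the genes tested there. Their rise stood in CKD627_1 only, since in CKD627_2 the log2 differences were 0.13 for Cdh5 and -0.08 for Flt1. The test of whether the Tomato difference itself differed between prefixes called 0 members and 0.14% of all genes. For Cdh5 that difference was 1.44 ± 0.69 (CKD627 minus CKD523, SE, edgeR adjusted p = 0.388) and for Flt1 1.46 ± 0.74 (adjusted p = 0.419). For the other members the smallest adjusted p was 0.679 (Plvap).

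The members covaried strongly with each other. Over the 8 libraries the Pearson correlation of log2 CPM had a median of 0.90 over the 45 gene pairs and ranged from 0.67 to 0.99. With the mean of each prefix removed the median was 0.79, and the range ran from 0.07 to 1.00. Pecam1 and Kdr were then closest to the rest (median 0.91 each) and Tek least close (0.57). These correlations describe 8 libraries that share their scaling, and the members were chosen for a shared difference between prefixes. The Tomato-positive library of CKD523_2 was the lowest for every member but Tek, and correlations without it were not computed.

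Some markers of other cells of the glomerulus and vessel wall moved with the members, and others did not. Nphs1, which encodes nephrin of the podocyte slit diaphragm, had log2 differences of -3.37 in CKD523_2, 1.36 in CKD523_3, 0.81 in CKD627_1 and -0.93 in CKD627_2. These are the signs that Kdr and Ehd3 had in each pair. Podxl, which encodes podocalyxin of podocytes and also of endothelium, had -2.69, 1.29, 1.19 and -0.76. With prefix means removed, the mean log2 CPM of all 8 podocyte markers correlated over the 8 libraries at 0.98 with Ehd3, 0.98 with Kdr, 0.96 with Pecam1 and 0.52 with Tek. The Tomato-positive library of CKD523_2 was the lowest for Nphs1 (2.77 CPM), Podxl (24.9 CPM), Kdr (8.84 CPM) and Ehd3 (12.1 CPM). Correlations with this and the other marker lists were not computed without that library. The part of podocyte RNA in these patterns was not tested.

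The podocyte list as a whole summed to between 452 and 806 CPM in CKD523 and between 486 and 938 CPM in CKD627, and none of its 8 markers was separate between prefixes. Between Tomato groups Cd2ap, an adaptor also found in tubule cells, rose (0.61 ± 0.14, SE, edgeR adjusted p = 0.0321), while Nphs1 and Podxl did not pass.

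The list of 11 mural cell markers (pericytes and vascular smooth muscle) followed the prefix. It summed to between 91.4 and 157 CPM in CKD523 and between 403 and 642 CPM in CKD627. Of its 10 tested genes 7 were higher in every CKD627 library, where 9.52% of all tested genes were. Rgs5, a pericyte regulator of G-protein signalling, averaged 13.2 CPM in CKD523 and 118 CPM in CKD627, and Acta2, the actin of smooth muscle, 10.4 and 87.5 CPM. The renin gene Ren1 was at 0 counts in all libraries. No mural gene passed between Tomato groups in edgeR (2 at the loose limit of an unadjusted p under 0.05, Notch3 and Cspg4). Notch3 and Cspg4 were higher in all 4 pairs, unlike any member. Rgs5 had log2 differences of -0.48, 1.11, 0.55 and -0.55, in the order of identifiers used above. In CKD627_1 Acta2 was at 116 CPM without and 51.3 CPM with Tomato. With prefix means removed, the list's mean correlated with the members at 0.59 (Tek) to 0.92 (Kdr). Its part in the members' pattern was not tested.

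Among 12 leukocyte markers 1 rose and none fell in Tomato-positive cells, where 3.82% of all tested genes rose and 3.81% fell. Cd68, which encodes a lysosomal protein of macrophages, rose from 5.32 ± 1.25 to 14.4 ± 5.33 CPM (SD, n = 4 per group, log2 1.40 ± 0.25, SE, edgeR adjusted p = 0.0153) and was higher in all 4 pairs. Csf1r, a receptor of macrophages, did not pass (-1.52 ± 0.42, adjusted p = 0.0617). Cd3e was at 0 counts, 7 of 12 genes passed the filter, and the summed level of the 12 was between 95.4 and 136 CPM in CKD523 and between 113 and 147 CPM in CKD627, with Cd14, which tubule cells can also make, the highest. With prefix means removed, the mean log2 CPM of the 7 tested leukocyte markers correlated with the members at -0.05 (Cdh5) to 0.44 (Ehd3). Their part in the members' pattern was not tested. Of 7 fibroblast markers 5 were tested and none passed in edgeR (3 at the loose limit of an unadjusted p under 0.05: Col1a2, Col3a1 and Pdgfra). In the tubule lists, 0 of 15 proximal tubule genes rose and 7 fell, and 0 of 7 genes of the loop of Henle and distal tubule rose and 6 fell. Of 10 collecting duct genes 6 rose and 2 fell, beside the 3.82% and 3.81% of all tested genes. The globin genes Hba-a1, Hba-a2, Hbb-bs and Hbb-bt were at 0 counts in every library.

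**Figure D4:**
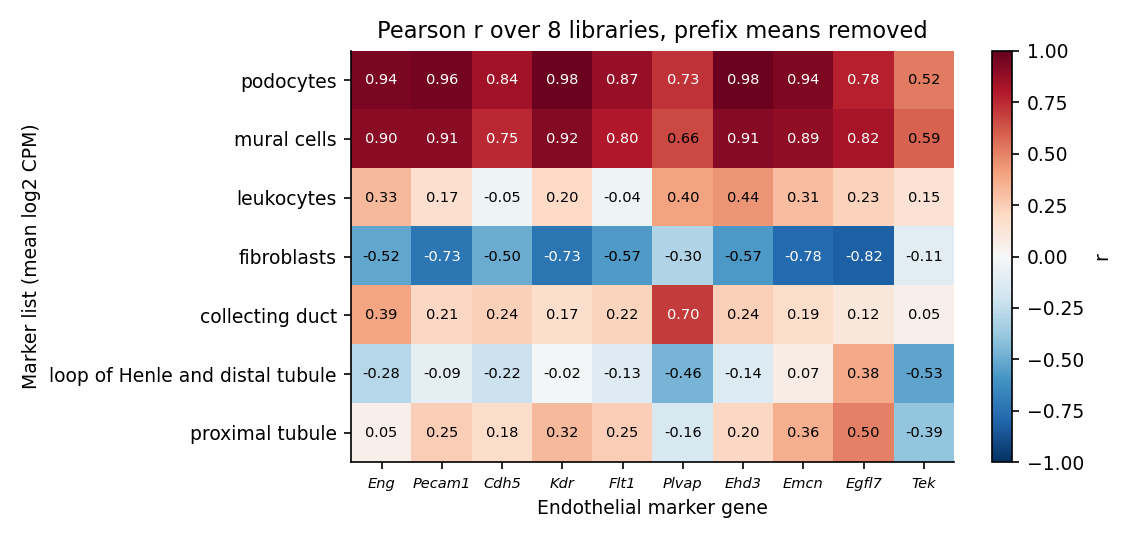
Pearson correlation over the 8 libraries, with prefix means removed, between log2 CPM of each endothelial gene (columns) and the mean log2 CPM of the tested genes of each marker list (rows). The podocyte row runs from 0.52 (Tek) to 0.98 (Ehd3 and Kdr), and the proximal tubule row from -0.39 (Tek) to 0.50 (Egfl7).

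Other endothelial genes were taken from whole lists, the members left out. Of all 14284 tested genes, 9.52% were higher in every CKD627 library, and 3.82% rose and 3.81% fell in Tomato-positive cells. These shares stand beside the counts of each list below. Of 24 genes of junctions and the cell surface, 19 were higher in every CKD627 library (median log2 difference 2.24). None passed between Tomato groups in edgeR (3 at the loose limit of an unadjusted p under 0.05: Vwf, Icam1 and Procr). Over the 8 libraries the mean of this list correlated with the members at 0.75 (Ehd3) to 0.98 (Tek). Its difference between prefixes is thus no separate support for theirs. Vwf, which encodes von Willebrand factor and is highest in larger vessels, was at 3.25, 1.80, 10.1 and 25.3 CPM in the Tomato-negative and 5.23, 1.67, 108 and 99.4 CPM in the Tomato-positive libraries, in the order of identifiers used above. Both CKD627 pairs thus had higher Vwf in Tomato-positive cells, where Pecam1 was higher in CKD627_1 only. The log2 Tomato difference of Vwf over all pairs was 1.74 ± 0.50 (SE, edgeR adjusted p = 0.0714). The test of whether this Tomato difference itself differed between prefixes did not pass (edgeR adjusted p = 0.118). Icam1, an adhesion molecule that tubule cells also make under stress, was lower in CKD627 (138 CPM) than in CKD523 (240 CPM).

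Among 19 endothelial transcription factor genes, 6 of 18 tested were higher in every CKD627 library (median 1.37), and 2 rose in Tomato-positive cells. These were Tbx3 (16.8 to 56.4 CPM, log2 1.83 ± 0.26, SE, edgeR adjusted p = 0.0061) and Gata2 (62.1 to 150 CPM, 1.53 ± 0.23, adjusted p = 0.00758), both of which are also expressed outside endothelium. Klf4, a flow-responsive factor that epithelia also make, did not pass (0.72 ± 0.20, adjusted p = 0.0657).

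Of 22 ligands and receptors of VEGF, angiopoietin, TGF-beta family and Notch signalling, 20 were tested, 6 were higher in every CKD627 library, 1 rose and 1 fell in Tomato-positive cells. Angpt2, the context-dependent ligand of TIE2, fell from 53.3 ± 17.0 to 16.8 ± 9.27 CPM (SD, n = 4 per group, log2 -1.78 ± 0.19, SE, edgeR adjusted p = 0.00224), with -1.81 in CKD523 and -1.75 in CKD627. Angpt1, the activating ligand, did not pass (0.96 ± 0.32, adjusted p = 0.108). The receptor gene Notch1 rose (1.21 ± 0.23, adjusted p = 0.0173). Vegfa, the ligand of Kdr and Flt1, averaged 200 CPM without and 192 CPM with Tomato and did not pass (-0.03 ± 0.16, adjusted p = 0.925). The receptor genes Kdr, Flt1 and Tek gave no call in this comparison, and a link between them and these ligands was not tested. Gdf2, which encodes the endoglin ligand BMP9, and Bmp10 were at 0 counts in all libraries.

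Of 21 genes of endothelial subtypes, 18 were tested, 7 were higher in every CKD627 library, 3 rose and 2 fell in Tomato-positive cells. Slc14a1, the urea transporter of the descending vasa recta and of urothelium, rose from 5.85 ± 7.26 to 29.3 ± 30.3 CPM (SD, log2 2.55 ± 0.42, SE, edgeR adjusted p = 0.0108) and was higher in all 4 pairs. In CKD523 it had few counts, 0 and 15 in the Tomato-negative and 32 and 66 in the Tomato-positive libraries. Efnb2, an arterial ephrin that tubules also express, rose (1.20 ± 0.20, adjusted p = 0.0116), as did the adhesion gene Vcam1 (0.99 ± 0.23, adjusted p = 0.0386). Lpl fell (-1.89 ± 0.20, adjusted p = 0.00201), as did Cyp4b1 (-1.05 ± 0.20, adjusted p = 0.0182), which is also in the proximal tubule list. Unlike any member, Lpl was lower in all 4 pairs. It averaged 274 CPM in CKD523 and 174 CPM in CKD627, while every member was higher in CKD627. Which cells made Lpl and Vcam1 was not tested. Aqp1, shared by proximal tubule and vasa recta, did not pass (-0.68 ± 0.30, adjusted p = 0.2).

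The genes outside the 10 whose log2 CPM over the 8 libraries was most like the mean of the members were Atp2a3 (Pearson r = 0.995, n = 8 libraries), Cd38, Ushbp1, Arap3, Pde3a, Sema3g, Tmcc2, Pde2a, Gimap6 and Mrvi1 (0.984). They are the 10 highest of 11305 genes with a mean of at least 5 CPM, of which 149 had r of at least 0.9. None of these 10 passed between Tomato groups in edgeR. Their log2 differences between prefixes ran from 1.73 (Cd38) to 2.59 (Atp2a3). Both results largely follow from choosing these genes by likeness to the members in the same libraries, and they support nothing.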

How the data were processed

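Raw counts per gene symbol were deposited by the authors in 1 table for 8 libraries. The reads were aligned with subread, per the file headers, and the submitters' processing notes name the build mm10, edgeR 3.32.1 and limma 3.46.0. The counter, annotation, strand setting and treatment of reads with several matches are not recorded there. The labels' protocols name a single-cell RNA kit and NEBNext Ultra library preparation.

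The members, marker lists, tests and most alternatives were chosen with earlier results of these data known. The median CPM per kilobase with the GENCODE basic exons was added after the values were seen. The filterByExpr defaults (minimum count 10, minimum total 15, groups of 4) kept 14284 of 25240 genes (56.6%). CPM are computed here with TMM factors (edgeR 4.0.16, R 4.3.3), and log2 CPM with a prior count of 2. Tomato groups were compared with edgeR's quasi-likelihood test, 2-sided, with the title identifier as a block and Benjamini-Hochberg adjustment over all tested genes. The difference between prefixes in that contrast was an interaction term in the same fit. SE are the difference over the root of F. The models were tested on simulated data. After removal of Tomato group means, libraries with the same identifier correlated at 0.46, 0.32, 0.33 and 0.47. Prefix means were kept and other library pairs were not compared, so these values do not test the pairing. It comes from the titles. Libraries of 1 group were no copies of each other (chi-square over its degrees of freedom 15.5 to 191).

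Named genes were all members, up to 4 genes with the smallest p and up to 2 with the highest CPM per list, and the 10 genes most like the members' mean. Vcam1, genes of lists at 0 counts, Podxl, Rgs5, Acta2, Notch3, Cspg4 and Cd2ap among pairs, and the ratios of members were named after their values were seen. Some results of the podocyte list are not reported here. Positions and exon lengths are from GENCODE M21 (GRCm38, the same build), where each member had 1 gene. Promoters are from RefSeq (GRCm38.p6). Alternatives used DESeq2 1.42.0 and limma 3.58.1.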

Additional observations from a re-analysis of the deposited data

How the results depend on the processing

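The count of 0 members past the threshold between Tomato groups held under each alternative tried except prefix CKD627 alone, where 2 passed (Cdh5 and Flt1), and the cause was not tested. The count over all genes was 1089 in the paired fit, 85 with no replicate block, 2026 by DESeq2 with the replicate block and 3142 in prefix CKD523 alone, and between 6 and 1319 over all fits that left out a pair, or a library without the block (521, 203, 1319 and 384 without CKD523_2, CKD523_3, CKD627_1 and CKD627_2). A difference of the Tomato contrast between prefixes was called for 20 genes, 2 with no replicate block, 0 with library size only and 399 by DESeq2.

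Signs of the members' Tomato differences, none called with all libraries, were not stable. Pecam1 was 0.23 with no replicate block, 0.12 with the prefix as covariate, 0.025 with library size only, 0.20 by limma-voom and 0.30 in CKD627 alone. Kdr was 0.086, 0.021, 0.049 and 0.24 (no block, prefix, limma-voom, CKD627 alone), and Ehd3 0.042, 0.079 and 0.063 (no block, prefix, limma-voom). In CKD523 alone Cdh5 was -0.48 and Flt1 -0.60, and in CKD627 alone Plvap was -0.040. With 1 pair or library left out, the ranges were -0.42 to 0.79 for Pecam1, -0.24 to 1.28 for Cdh5, -0.64 to 0.54 for Kdr, -0.40 to 1.02 for Flt1, -0.76 to 0.13 for Emcn, -0.61 to 0.47 for Ehd3, -0.30 to 0.62 for Plvap, -0.033 to 1.03 for Tek and -0.32 to 0.81 for Eng. Egfl7 was below 0 in each. The difference of the Tomato contrast between prefixes turned to -0.15 for Emcn, -0.33 for Ehd3 and -0.28 for Eng with no replicate block. The differences between prefixes kept their sign, but without the Tomato-positive library of CKD523_2 Kdr went from 1.32 to 0.72 and Ehd3 from 0.88 to 0.42, and in Tomato-negative libraries alone Cdh5 went from 2.13 to 1.38, Kdr to 0.81 and Flt1 from 1.73 to 0.97. The other values moved by less than 1.5 times. Of the list genes called in the paired fit and named above, Tbx3 (edgeR adjusted p = 0.0473) and Lpl (0.041) also passed with no replicate block, while Angpt2 (0.0906), Gata2 (0.276), Notch1 (0.122), Slc14a1 (0.393), Efnb2 (0.113), Vcam1 (0.0888), Cyp4b1 (0.178), Cd68 (0.0663) and Cd2ap (0.0691) did not.

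With 4 libraries per group the members' intervals were widest for Kdr (-1.37 to 1.10) and narrowest for Plvap (-0.35 to 0.74). Small differences were therefore not detectable.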
